A study of Homo sapiens with 12 samples.

Results

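The S100 genes encode small calcium-binding proteins, and 10 of them are described here: S100A2, S100A4, S100A6, S100A7, S100A8, S100A9, S100A10, S100A11, S100A14 and S100P. These genes were selected on their read levels in the same libraries that are described below, so their differences between groups are given as descriptions with no p-value, and a count of members past a threshold supports nothing. They are 10 of the 21 S100 genes and of the 61044 genes in the deposited table. No threshold came with the choice, and S100A16, which was not chosen, was read at a higher level than several of the 10.

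RNA was sequenced in bulk from SCC-15, an established cell line of human oral squamous cell carcinoma. A control group, NC, carried the control hairpin shRNA-NC, and the groups shRNA1, shRNA2 and shRNA3 each carried another short hairpin RNA against FMOD, the gene of fibromodulin, a proteoglycan of the extracellular matrix. The comparison of each hairpin with NC asks which transcripts differ when FMOD is depleted. Each of the 4 groups had 3 libraries (n = 3), all harvested at 48 hours. Per the labels, all 4 groups share the parent line and carry a hairpin. How the hairpins were delivered, whether the cells of a group are 1 clone and whether the 3 libraries came from separate cultures are not given in the sources used here, so spread between libraries may be technical.

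S100 proteins bind calcium through paired EF-hand loops and mostly act as dimers that dock on other proteins. S100A8 and S100A9 form calprotectin, which is abundant in neutrophils and monocytes and is also made by stratified epithelia under stress. S100A7, or psoriasin, is an antimicrobial protein of inflamed epidermis. S100A10 is the partner of annexin A2, S100A11 binds annexin A1, S100A4 binds non-muscle myosin, S100A6 binds CACYBP, and S100P binds ezrin. S100A2 and S100A14 are epithelial members. All but S100P of the 10 lie on chromosome 1 in band 1q21, within the region that also holds the genes of the cornified envelope of the skin.

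S100A8 and S100A9 were low together in all 9 shRNA libraries, and S100P was read almost only there. S100A6 had the highest mean level per length of the S100 transcripts in shRNA1 and shRNA3, where its libraries overlapped those of S100A11. For these reasons the promoters of S100A8, S100A9, S100P and S100A6 are printed here. Each is the 250 bases before a RefSeq transcript start on GRCh38.p14, 5′ to 3′ on the strand of the gene, with every TATAAA in capitals. S100A8 is at chr1:153391074-153391323 on the minus strand, S100A9 at chr1:153357604-153357853 on the plus strand, S100P at chr4:6693628-6693877 on the plus strand, and S100A6 at chr1:153535992-153536241 on the minus strand.
S100A8: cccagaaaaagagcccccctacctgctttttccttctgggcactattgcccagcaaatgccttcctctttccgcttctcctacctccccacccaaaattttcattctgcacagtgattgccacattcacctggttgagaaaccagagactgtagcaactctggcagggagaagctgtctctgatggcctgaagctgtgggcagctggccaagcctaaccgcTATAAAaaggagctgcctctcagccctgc
S100A9: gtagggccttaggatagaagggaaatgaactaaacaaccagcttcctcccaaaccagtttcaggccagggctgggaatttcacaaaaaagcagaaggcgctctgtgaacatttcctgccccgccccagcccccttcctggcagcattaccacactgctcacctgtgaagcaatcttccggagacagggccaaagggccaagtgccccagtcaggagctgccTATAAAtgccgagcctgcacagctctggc
S100P: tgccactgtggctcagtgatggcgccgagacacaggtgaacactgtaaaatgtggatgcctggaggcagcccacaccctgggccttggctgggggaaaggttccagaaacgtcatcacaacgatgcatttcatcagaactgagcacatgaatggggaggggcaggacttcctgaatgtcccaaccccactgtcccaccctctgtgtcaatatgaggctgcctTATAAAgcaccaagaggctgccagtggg
S100A6: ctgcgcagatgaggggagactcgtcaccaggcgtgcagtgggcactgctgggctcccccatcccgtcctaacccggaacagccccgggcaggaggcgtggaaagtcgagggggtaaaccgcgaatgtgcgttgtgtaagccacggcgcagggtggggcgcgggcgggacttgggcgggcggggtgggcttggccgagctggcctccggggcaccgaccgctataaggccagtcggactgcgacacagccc
On either strand, the TATA box letters TATAAA stand 29 bases before the start in both S100A8 and S100A9 and 28 bases before it in S100P. S100A4 has them 31 bases and S100A7 28 bases before the start. The letters are in none of the windows used for S100A2, S100A6, S100A10, S100A11 and S100A14. Of 35116 RefSeq promoter windows of the same length, 10.7% hold TATAAA. S100A8 has 3 RefSeq starts, and 2 of its 3 windows hold it. The genes with the letters include ones that were low and ones that were high in the shRNA libraries. A match is a description of the letters only.

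Before the levels, the state of the libraries bears on every comparison. Each held between 17286934 and 19567192 counts. Across genes, the correlation of log2 CPM (the counts of a gene relative to its library's total) was 0.751 to 0.772 between NC and shRNA libraries and 0.893 to 0.978 between libraries of different hairpins, so the NC libraries stood apart from all 9 others. Within shRNA3, libraries 1 and 2 correlated at 0.982 with each other and at 0.907 and 0.903 with library 3, and their TMM scaling factors, 0.771 and 0.795, were the lowest beside 0.979 to 1.11 in the others. The targeted gene FMOD had 2, 2 and 3 counts in NC and 0 in every shRNA library, a level too low to grade the knockdown. Of the squamous epithelial markers, 13 of 13 were read, with summed levels of 2664 to 2852 CPM in NC and 2332 to 3397 CPM in the shRNA groups. Within that list, KRT5 averaged 1009 CPM in NC against 21.4, 80.2 and 74.9 in shRNA1, shRNA2 and shRNA3, and CDH1 averaged 323 against 38.2, 53.4 and 66.1. Others of the list had higher averages with each hairpin, DSP at 289 CPM in NC against 808, 979 and 670, KRT17 at 312 against 648, 572 and 749, KRT6A at 92.3 against 284, 429 and 212, and KRT14 at 7.58 against 55.5, 24.5 and 149. The 9 fibroblast markers summed to 56.9 to 59.9 CPM in NC and 15.6 to 86.7 CPM in the shRNA groups, mostly COL1A1, while PDGFRB averaged 10.7 CPM in NC against 0.765, 1.10 and 0.728, and COL1A2 averaged 4.81 against 0.0688, 0 and 0.0243. The 8 neural crest and glial markers summed to 42.3 to 44.9 CPM in NC and 28.9 to 40.6 CPM in the shRNA groups. Any difference between the NC and shRNA cultures other than the hairpin, their stock of cells included, cannot be told apart from the hairpin in the values below.

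The calprotectin pair and S100A7 were the members that were low with every hairpin. S100A9 was the highest S100 transcript per length in NC and was number 8 of the 10 in each shRNA group. Its TMM-scaled level was 209, 250 and 261 CPM in NC libraries 1, 2 and 3. It was 6.07, 5.77 and 2.99 CPM in shRNA1, 1.93, 1.75 and 1.27 CPM in shRNA2, and 11.6, 11.5 and 5.96 CPM in shRNA3. No shRNA library came near the NC libraries, and the 3 shRNA2 libraries were the lowest of all. The group means were 240 ± 27.5 CPM in NC (SD, n = 3), 4.94 ± 1.70 in shRNA1, 1.65 ± 0.339 in shRNA2 and 9.68 ± 3.22 in shRNA3. The log2 fold changes against NC were -5.60 (SE 0.34), -7.18 (SE 0.38) and -4.64 (SE 0.33), which are 48.6-, 145- and 24.8-fold lower levels. Without shRNA3 libraries 1 and 2, the shRNA3 value was -5.30. In bulk RNA, fewer cells that make a transcript and less of it per cell cannot be told apart.

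S100A8, the other subunit of calprotectin, was read at a far lower level than S100A9 but was ordered in the same way over the groups. It was 9.59, 10.4 and 12.1 CPM in NC, from 190, 212 and 238 counts. The shRNA1 libraries had 9, 7 and 1 counts, the shRNA2 libraries had 0, 0 and 0, and the shRNA3 libraries had 8, 9 and 10. Every NC library was above every shRNA library. The level was 38.3-fold lower in shRNA1 and 18.4-fold lower in shRNA3, and it was at least 189-fold lower in shRNA2, taken against a floor of 3 counts over the group. This floor, like the counting intervals below, covers counting error only.

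The S100A8 to S100A9 count ratio asks whether both subunits fell by like amounts. It was 0.0446 in NC (exact 95% interval 0.0411 to 0.0482, from 640 and 14363 counts), 0.0569 in shRNA1 (0.0327 to 0.0926) and 0.0622 in shRNA3 (0.0405 to 0.0918). The intervals of both shRNA groups contained the NC value. In shRNA2, 0 counts of S100A8 stood beside 87 of S100A9, with an exact 95% upper bound of 0.0433. This bound lies just under the NC value of 0.0446, so the shRNA2 interval, unlike those of shRNA1 and shRNA3, did not contain it. The bound also lies within the NC interval and rests on 0 counts of S100A8, so the size of any difference in the ratio is not known.

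S100A7, psoriasin, was 8.33, 10.6 and 10.8 CPM in NC, from 165, 216 and 213 counts. All shRNA libraries together held 1 count, in shRNA2 library 2. The level was at least 199-fold lower in shRNA1 and at least 157-fold lower in shRNA3 against the floor of 3 counts over the group. In shRNA2 the ratio was 525-fold lower, with a counting interval of 93.9 to 20770. Reads of S100A7 and its near-identical copy S100A7A may have been split between the 2 genes, so the single values are uncertain. S100A7A itself had 9, 7 and 18 counts in NC and 0 in all 9 shRNA libraries.

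Markers of myeloid cells, the main source of calprotectin in the body, are given beside S100A8 and S100A9. Of 12 such markers, 4 exceeded 3 counts in some NC library. The number was 6, 4 and 7 in shRNA1, shRNA2 and shRNA3. The summed level was 59.7 to 78.1 CPM in NC and 45.3 to 237 CPM in the shRNA groups, and most of it was CD68, a lysosomal protein that many cells make. PTPRC, TYROBP and FCN1, which mark leukocytes and monocytes, were at 0 in all NC libraries. CD68 averaged 63.2 CPM in NC against 75.6, 82.4 and 191 in shRNA1, shRNA2 and shRNA3, and PTPRC reached 9 counts in a shRNA library. CD14 averaged 4.17 CPM in NC against 0.808, 1.85 and 0.765 in shRNA1, shRNA2 and shRNA3, and ITGAM averaged 1.46 against 0.586, 0.607 and 0.518, so these were lower alongside S100A8 and S100A9. Their part in the S100 values was not tested.

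S100P showed the opposite contrast and was close to unread in NC. Its counts were 0, 0 and 1 in NC libraries 1, 2 and 3. It was 257, 220 and 147 CPM in shRNA1, 101, 96.1 and 104 CPM in shRNA2, and 360, 422 and 109 CPM in shRNA3. Every shRNA library held at least 1705 counts, and those of shRNA2 lay closest together. Against the 1 count of NC, the ratio was 12490-fold in shRNA1 (counting interval 2242 to 493400), 5998-fold in shRNA2 (1076 to 237000) and 16210-fold in shRNA3 (2909 to 640300). For shRNA3 library 3 alone it was 6489-fold (1163 to 256400). S100P is on chromosome 4, from 6693069 to 6697170 on the plus strand.

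S100A4, a member known for its binding to non-muscle myosin and its link to cell motility, was the lowest member per length in NC after S100P. It was 2.83, 3.69 and 3.04 CPM in NC. It was 30.4, 31.0 and 20.4 CPM in shRNA1, 34.8, 32.7 and 34.1 CPM in shRNA2, and 47.2, 60.2 and 54.9 CPM in shRNA3. The groups did not overlap with NC, and the shRNA3 libraries were above those of the other two hairpins. The level was 8.55-, 10.6- and 17.0-fold higher than in NC, and the log2 differences were 3.09, 3.41 and 4.08 (SE 0.21 each). S100A4 overlaps S100A3 on the same strand, and how reads in the overlap were assigned is not given in the sources used here.

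**Figure D1:**
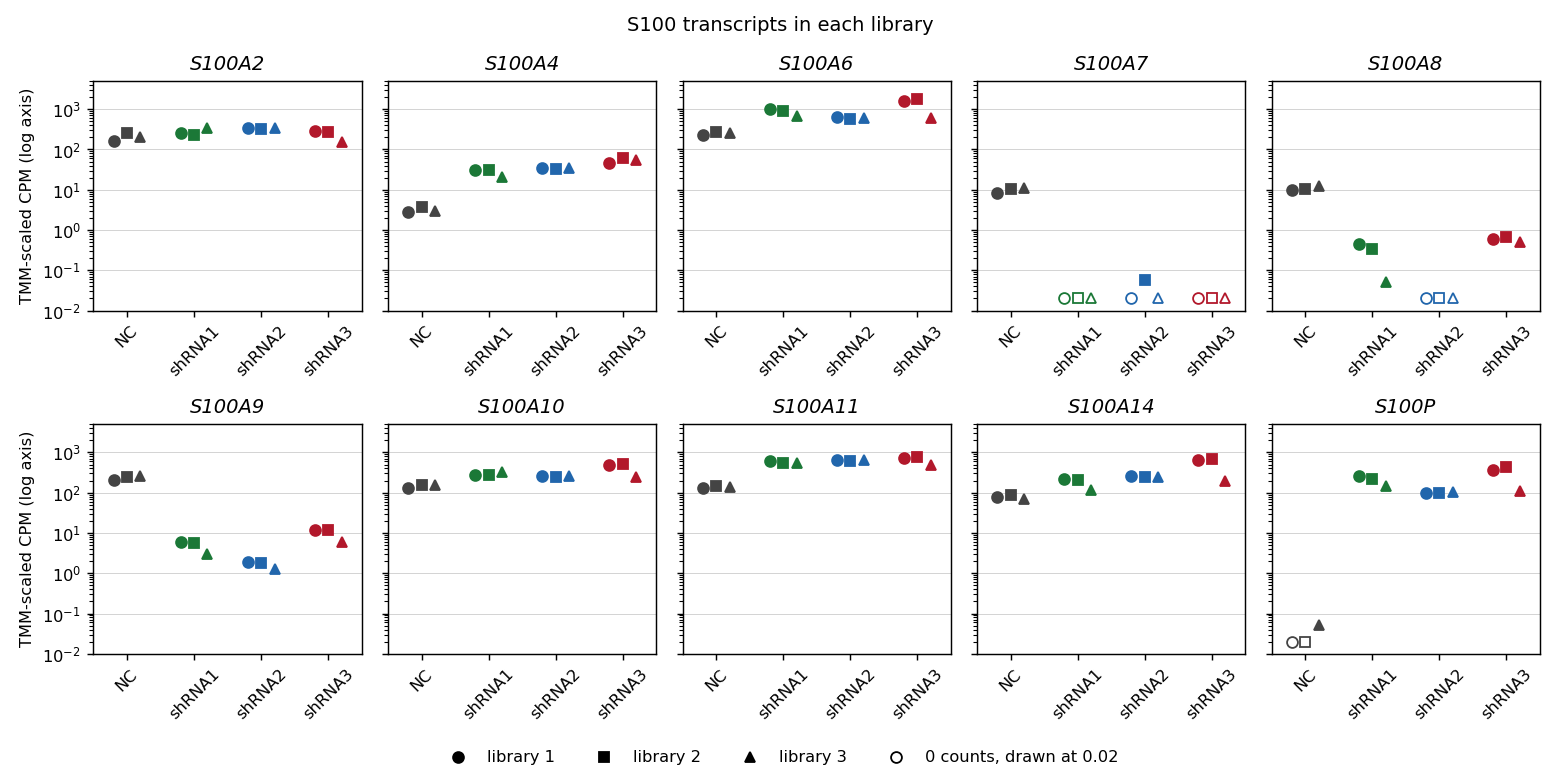
Levels of the 10 S100 transcripts as TMM-scaled CPM on a log axis, 1 panel per gene, with the 4 groups side by side, the marker shape giving the library number and open markers at 0.02 standing for 0 counts. S100A7, S100A8 and S100A9 are high only in NC, S100P is high only in the shRNA groups, and the marker for library 3 of shRNA3 lies well under libraries 1 and 2 for S100A6, S100A14 and S100P.

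S100A6, calcyclin, was 232, 271 and 257 CPM in NC. It was 1005, 921 and 692 CPM in shRNA1, 653, 576 and 617 CPM in shRNA2, and 1571, 1789 and 613 CPM in shRNA3. All shRNA libraries were above all NC libraries, while shRNA3 library 3 lay at the level of shRNA2. The log2 fold changes were 1.78 (SE 0.32), 1.28 (SE 0.32) and 2.39 (SE 0.33). Without shRNA3 libraries 1 and 2, the shRNA3 value was 1.30.

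S100A11, calgizzarin, was higher by a like amount with each hairpin. Its libraries lay between 134 and 144 CPM in NC and between 496 and 751 CPM in the shRNA groups. The means were 137 ± 5.71 CPM in NC, 560 ± 30.4 in shRNA1, 649 ± 18.2 in shRNA2 and 664 ± 145 in shRNA3 (SD, n = 3). These are log2 fold changes of 2.03, 2.24 and 2.27 (SE 0.17 each).

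S100A10, the light chain of the annexin A2 complex, lay between 127 and 157 CPM in NC and between 250 and 513 CPM in the shRNA groups. Its log2 fold changes were 0.997 (SE 0.23), 0.81 (SE 0.23) and 1.51 (SE 0.23), and the shRNA3 value was 0.80 without libraries 1 and 2. It had the smallest difference of the 6 members whose shRNA libraries were all above NC.

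S100A14 was 78.3, 88.0 and 71.4 CPM in NC. It was 219, 201 and 120 CPM in shRNA1, 260, 247 and 246 CPM in shRNA2, and 660, 699 and 194 CPM in shRNA3. The groups did not overlap with NC, but shRNA1 and shRNA3 each had a low library 3. The log2 fold changes were 1.18 (SE 0.39), 1.66 (SE 0.39) and 2.71 (SE 0.40), and the last was 1.32 without shRNA3 libraries 1 and 2. With any 1 of the 12 libraries left out, the shRNA1 value lay between 1.03 and 1.41.

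S100A2, a nuclear member of the basal epithelium, was the only member with shRNA libraries inside the range of NC. It was 161, 253 and 208 CPM in NC. It was 255, 229 and 346 CPM in shRNA1, 336, 316 and 343 CPM in shRNA2, and 285, 277 and 157 CPM in shRNA3. Only the shRNA2 libraries were all above NC. The log2 fold changes were 0.42 (SE 0.24), 0.68 (SE 0.25) and 0.21 (SE 0.24). The shRNA3 value was -0.37 without libraries 1 and 2 and -0.18 with raw library totals, so its direction depended on those choices. With any 1 of the 12 libraries left out, the shRNA2 value lay between 0.53 and 0.85.

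As a description of genes chosen from these values, 6 members passed as higher and 3 as lower with shRNA1, 7 and 3 with shRNA2, and 6 and 3 with shRNA3. Passed means an adjusted p under 0.05 in edgeR's quasi-likelihood test over all 17532 genes tested. All 10 members passed the filter on low counts, S100A7, S100A8 and S100P through the group or groups in which they were high. Of all genes tested, 26.8% passed as higher and 30.6% as lower with shRNA1, 24.6% and 28.4% with shRNA2, and 26.4% and 27.6% with shRNA3. All 9 shRNA libraries were above all 3 NC libraries for 6 members, S100A4, S100A6, S100A10, S100A11, S100A14 and S100P, and for 19.0% of all genes. They were below for 3 members, S100A7, S100A8 and S100A9, and for 25.8% of all genes. Nothing is read from these counts, since the choice used the same values.

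The members also differed between hairpins, again as a description. Between shRNA1 and shRNA2, 2 members differed past the threshold, S100A8 and S100A9, beside 12.3% of all genes. Between shRNA1 and shRNA3 there were 3, S100A4, S100A9 and S100A14, beside 30.0% of all genes, and between shRNA2 and shRNA3 there were 4, S100A4, S100A8, S100A9 and S100P, beside 8.34%. S100A9 was in all these lists, lowest in shRNA2 and highest in shRNA3, with means 5.86-fold apart. These counts moved between 0 and 7 when single libraries were left out.

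Libraries of the same hairpin differed in a way that was not shared by all members. In shRNA3, the mean of libraries 1 and 2 over library 3 was 3.61 for S100P, 3.50 for S100A14, 2.74 for S100A6, 1.99 for S100A10 and 1.94 for S100A9, and 0.978 for S100A4. With raw library totals in place of TMM these ratios were 2.66, 2.58, 2.02, 1.47, 1.43 and 0.722. In shRNA1, the same ratio was 7.62 for S100A8, from few counts, 1.98 for S100A9, 1.75 for S100A14, 1.62 for S100P, 1.39 for S100A6 and 0.700 for S100A2. S100A11 was at 1.067 in shRNA1 and 1.506 in shRNA3, and S100A8 at 1.258 in shRNA3 (0.927 with raw totals). S100A4 was at 1.505 and S100A10 at 0.835 in shRNA1, and S100A2 at 1.788 in shRNA3. Thus S100P, S100A14, S100A9, S100A6, S100A11 and S100A8 were lower in library 3 of both hairpins with TMM. S100A2 and S100A10 were lower there in shRNA3 and higher in shRNA1.

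Per kilobase of exon, the order of the members changed between NC and the shRNA groups. In NC, S100A9 was first at 416 ± 47.6 CPM per kb (SD, n = 3), followed by S100A6 at 261 ± 20.1, S100A11 at 202 ± 8.39, S100A2 at 132 ± 29.4, S100A10 at 94.7 ± 10.6 and S100A14 at 62.1 ± 6.54. S100A7, S100A8, S100A4 and S100P came last, and no neighbours in this order overlapped over the 3 libraries. In shRNA1, S100A6 at 899 ± 167 and S100A11 at 824 ± 44.7 CPM per kb overlapped at the top, and from S100A10 at 189 through S100A2 and S100P to S100A14 at 141 each gene overlapped the next. In shRNA2, S100A11 led at 954 ± 26.7 over S100A6 at 633 ± 39.6, and only S100A2 with S100A14 and S100A7 with S100A8 overlapped. In shRNA3, S100A6 at 1364 ± 644 and S100A11 at 976 ± 213 overlapped, and from S100A14 at 405 through S100A10 and S100P to S100A2 at 153 each gene overlapped the next.

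The sum over all 21 S100 genes was 1104 to 1335 CPM in NC, 2714 to 3251 in shRNA1, 2801 to 3006 in shRNA2 and 2444 to 5734 in shRNA3, so every shRNA library was above every NC library. The lowest shRNA3 value was that of library 3. As shares of the summed CPM per kb, S100A9 made up 32.5% ± 1.76 in NC (SD, n = 3) and 0.307%, 0.108% and 0.424% in shRNA1, shRNA2 and shRNA3. S100A11 made up 15.9% ± 1.03 in NC and 30.1%, 35.9% and 25.7% in the shRNA groups. S100P made up 0.00101% in NC and 5.84%, 2.94% and 5.38%. S100A10 held a like share throughout, 7.39% in NC and 6.97%, 6.22% and 6.77%.

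**Figure D2:**
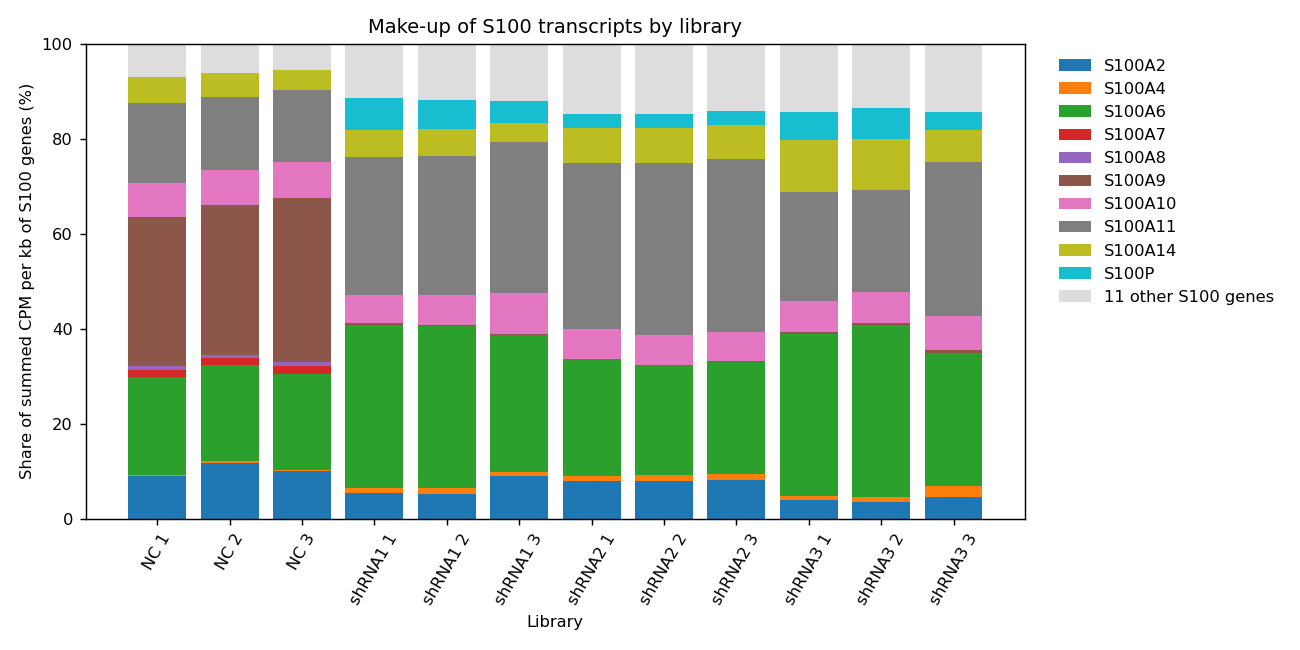
Stacked bars of the share (%) of the summed CPM per kb of 21 S100 genes taken by each of the 10 members and by the 11 others together, 1 bar for each of the 12 libraries. The S100A9 band takes 32.5% on average in NC and under 1% of every shRNA bar, where S100A6 and S100A11 are the widest bands and S100P appears.

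The 11 S100 genes outside the 10 give values on which a test can be made, although they were listed with earlier results of these data known. Of these, 4 passed the filter on low counts, and 3 of the 4, S100A3, S100A13 and S100A16, were higher with all 3 hairpins. Of all genes tested, 16% were higher and 19.7% lower with all 3. The median log2 fold change of the 4 was 1.82, 1.60 and 2.26, beside -0.02, -0.05 and -0.03 over all genes tested.

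S100A16, an epithelial member next to S100A14 on the chromosome, was 118, 116 and 102 CPM in NC. It was 498, 471 and 441 CPM in shRNA1, 629, 582 and 584 CPM in shRNA2, and 1032, 1019 and 484 CPM in shRNA3. All shRNA libraries were above NC, with shRNA3 library 3 again the low one of its group. The log2 fold changes were 2.07 (SE 0.25, adjusted p = 3.39e-05), 2.42 (SE 0.25, adjusted p = 1.26e-05) and 2.92 (SE 0.25, adjusted p = 4.2e-06) by edgeR's quasi-likelihood test, and the last was 2.14 without shRNA3 libraries 1 and 2.

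S100A13, which takes part in the release of proteins that lack a signal peptide, lay between 21.2 and 31.5 CPM in NC and between 64.7 and 183 CPM in the shRNA groups. It rose with log2 fold changes of 1.91 (SE 0.29, adjusted p = 0.000207), 1.43 (SE 0.29, adjusted p = 0.00149) and 2.48 (SE 0.30, adjusted p = 4.03e-05) by edgeR, and the last was 1.63 without shRNA3 libraries 1 and 2. S100A3, known from the hair cuticle, had 19 to 30 counts in NC and 65 to 84 in the shRNA libraries, and rose by log2 fold changes of 1.74, 1.77 and 2.05 (SE 0.30 each; adjusted p = 0.000469, 0.000449 and 0.000174 by edgeR). S100A3 lies within S100A4, so part of its reads may belong to that gene. S100A1, at 3 to 21 counts in any library, was not called (adjusted p = 0.155, 0.244 and 0.0787 by edgeR), and it overlaps S100A13 on the opposite strand.

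The other 7 were near or under the limit of reading. S100A12, calgranulin C, had 7, 3 and 3 counts in NC and 0 in every shRNA library, as S100A7A did at its own low level. In an edgeR fit with no filter on low counts, S100A7A and S100A12 passed as lower with each hairpin. Both were read in NC only, so lower was the only direction open to a call, and no p-value is given. S100A5 had at most 12 counts and S100Z at most 4 in any library. S100A7L2, S100B and S100G were at 0 in all 12 libraries, which allows up to 3 counts in each.

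The S100 genes of chromosome 1 are given here in their order (GENCODE 29 on GRCh38), parted for description at gaps of 1310 kb and 73.9 kb. S100A10 (151982915 to 151994390) and S100A11 (152032506 to 152047907) form the first pair, and both were higher with each hairpin. After 1310 kb comes the second group, S100A9 (153357854 to 153361027), S100A12, S100A8 (153390032 to 153391188), S100A7A, S100A7L2 and S100A7 (153457744 to 153460701). Of these 6 genes, the 5 that were read in NC were below NC in all 9 shRNA libraries. Among all genes tested the share below NC was 25.8%, but S100A7A and S100A12 are not among those genes. That share is also not limited to genes read in NC, so it is no measure for the 5. S100A7, S100A8 and S100A9 were chosen on these values, and S100A12 rests on 3 to 7 counts in NC. The third group starts 73.9 kb further on with S100A6 (153534599 to 153536244), followed by S100A5, S100A4 (153543613 to 153550136), S100A3, S100A2 (153561108 to 153567890), S100A16, S100A14 (153614255 to 153616986), S100A13 and S100A1. In this group 6 of 9 genes, S100A6, S100A4, S100A3, S100A16, S100A14 and S100A13, were above NC in all 9 shRNA libraries, as were 19.0% of all genes tested, and none was below. S100A6, S100A4 and S100A14 were chosen on these values.

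Of the 47 protein-coding genes of other families between S100A10 and S100A1, 19 were at 0 in every library, 32 had at most 3 counts in any library, and 3 passed the filter, FLG, HRNR and PGLYRP4. Among the genes of the cornified envelope, FLG, filaggrin, passed as higher with shRNA2 at log2 2.85 (SE 0.86, adjusted p = 0.0155 by edgeR) and not with shRNA1 at 1.77 (adjusted p = 0.0971) or shRNA3 at 0.51 (adjusted p = 0.656). The hairpins did not differ from each other in FLG past the threshold (adjusted p of 0.402, 0.258 and 0.089), and HRNR was not called (adjusted p = 0.348, 0.326 and 0.0673). PGLYRP4, which encodes a peptidoglycan recognition protein and is the gene next to S100A9, had 94, 117 and 95 counts in NC and 0 in all shRNA libraries. It was at least 102-, 90.0- and 80.6-fold lower against the floor of 3 counts over the group, and was called lower with each hairpin. It passed the filter through NC only, so lower was the only direction open to a call, and no p-value is given. The next gene out, PGLYRP3, had 25, 5 and 23 counts in NC and 0 in the shRNA libraries. In the edgeR fit with no filter it passed as lower with each hairpin. In that fit LCE1E, a late cornified envelope gene with 5 to 7 counts in NC and 0 in the shRNA libraries, also passed as lower with each hairpin. LCE1C and LCE1B, with at most 6 and 3 counts in NC, were at 0 in the shRNA libraries too. In the same edgeR fit LCE1C passed with shRNA1 only, and LCE1B did not pass with any hairpin. LCE1E, LCE1C and LCE1B lie outside the run from PGLYRP3 to S100A7. With at most 7 counts in NC, their levels of 0 carry little weight, and a cause was not tested. PGLYRP3, LCE1E, LCE1C and LCE1B were picked out after their values were seen, so their calls are a description and no p-value is given. The run from PGLYRP3 to S100A7 covers 163 kb.

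The proteins that S100 members dock on were read from a list of 22 partner and receptor genes, of which 20 passed the filter. With all 3 hairpins, 6 rose and 4 fell, and the latter include TRPV6, which passed the filter through NC only. By hairpin, 10 rose and 4 fell with shRNA1, 7 and 5 with shRNA2, and 8 and 5 with shRNA3, with median log2 fold changes of 0.43, 0.26 and 0.35. The shares of all genes that rose or fell are given above.

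Among the annexins, ANXA1, the partner of S100A11, lay between 381 and 466 CPM in NC and between 852 and 1401 CPM in the shRNA groups. It rose by log2 1.19, 1.53 and 1.51 (SE 0.19 each; adjusted p = 0.000289, 5.56e-05 and 6.38e-05 by edgeR). ANXA2, the partner of S100A10, rose by log2 0.78, 0.89 and 0.97 (SE 0.22 each; adjusted p = 0.0104, 0.00554 and 0.00327 by edgeR), and the shRNA3 value was 0.36 without libraries 1 and 2. ANXA11 rose by log2 0.34, 0.76 and 0.57 (SE 0.11 each; adjusted p = 0.0224, 0.000182 and 0.00123 by edgeR), and its shRNA1 call was lost when any NC library or shRNA1 library 1 or 2 was left out, at log2 values between 0.31 and 0.36. ANXA6, in contrast, fell from 33.0 to 36.8 CPM in NC to 4.77 to 10.8 CPM in the shRNA groups, by log2 values of -1.99, -2.26 and -2.29 (SE 0.28 each; adjusted p = 0.000113, 5.12e-05 and 5.03e-05 by edgeR). The annexins thus did not move in 1 direction.

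CACYBP, the calcyclin-binding protein that S100A6 docks on, rose by log2 1.75, 1.59 and 1.19 (SE 0.14 each; adjusted p = 2.14e-06, 4.01e-06 and 3.29e-05 by edgeR). EZR, the ezrin that S100P binds, rose by log2 1.14, 0.76 and 1.50 (SE 0.23 each; adjusted p = 0.00135, 0.0147 and 0.000254), and the shRNA3 value was 0.84 without libraries 1 and 2. MYH9, the non-muscle myosin heavy chain that S100A4 binds, fell from 2003 to 2581 CPM in NC to 574 to 975 CPM in the shRNA groups, by log2 values of -1.76, -1.71 and -1.38 (SE 0.18 each; adjusted p = 1.29e-05, 1.59e-05 and 7.52e-05 by edgeR). Its direction was opposite to that of S100A4.

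FABP5, a fatty acid carrier that binds S100A7, rose by log2 1.01, 1.30 and 0.95 (SE 0.16 each; adjusted p = 0.000221, 3.95e-05 and 0.000378 by edgeR). TRPV6, a calcium channel that the S100A10 and annexin A2 complex carries to the membrane, had 123 to 174 counts in NC and 0 in all shRNA libraries. It was at least 152-, 134- and 120-fold lower against the floor of 3 counts over the group, and was called lower with each hairpin. It passed the filter through NC only, so lower was the only direction open to a call, and no p-value is given. As a description only, its direction was opposite to that of S100A10 and ANXA2.

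The receptors of S100 proteins outside the cell did not move together. AGER, the receptor RAGE, lay between 3.25 and 4.80 CPM in NC and between 2.19 and 8.01 CPM in the shRNA groups, and was not called (adjusted p = 0.554, 0.739 and 0.321 by edgeR). NPTN, a receptor of S100A8, fell from 149 to 155 CPM in NC to 47.3 to 84.1 CPM, by log2 values of -0.94, -1.10 and -1.48 (SE 0.14 each; adjusted p = 0.000141, 4.67e-05 and 6.51e-06 by edgeR). BSG, basigin, which binds S100A9, was called with shRNA3 alone at log2 0.95 (SE 0.28, adjusted p = 0.0124 by edgeR), and this value was 0.05 without libraries 1 and 2.

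TLR4, the receptor of calprotectin on immune cells, had 44 to 60 counts in NC and 0 to 87 in the shRNA libraries. It was lower with shRNA2 at log2 -3.04 (SE 0.94, adjusted p = 0.018 by edgeR) and with shRNA3 at log2 -2.33 (SE 0.89, adjusted p = 0.045), and was not called with shRNA1 at log2 0.56 (SE 0.79, adjusted p = 0.568). The call with shRNA2 was lost without any 1 of its libraries, at log2 values between -3.09 and -2.91. The call with shRNA3 was lost when any 1 library of another group or shRNA3 library 1 or 2 was left out, at log2 values between -2.46 and -1.75, and the value was -8.61 without library 3, a fit against libraries near 0. CD36, with at most 5 counts in any library, could not be tested.

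**Figure D3:**
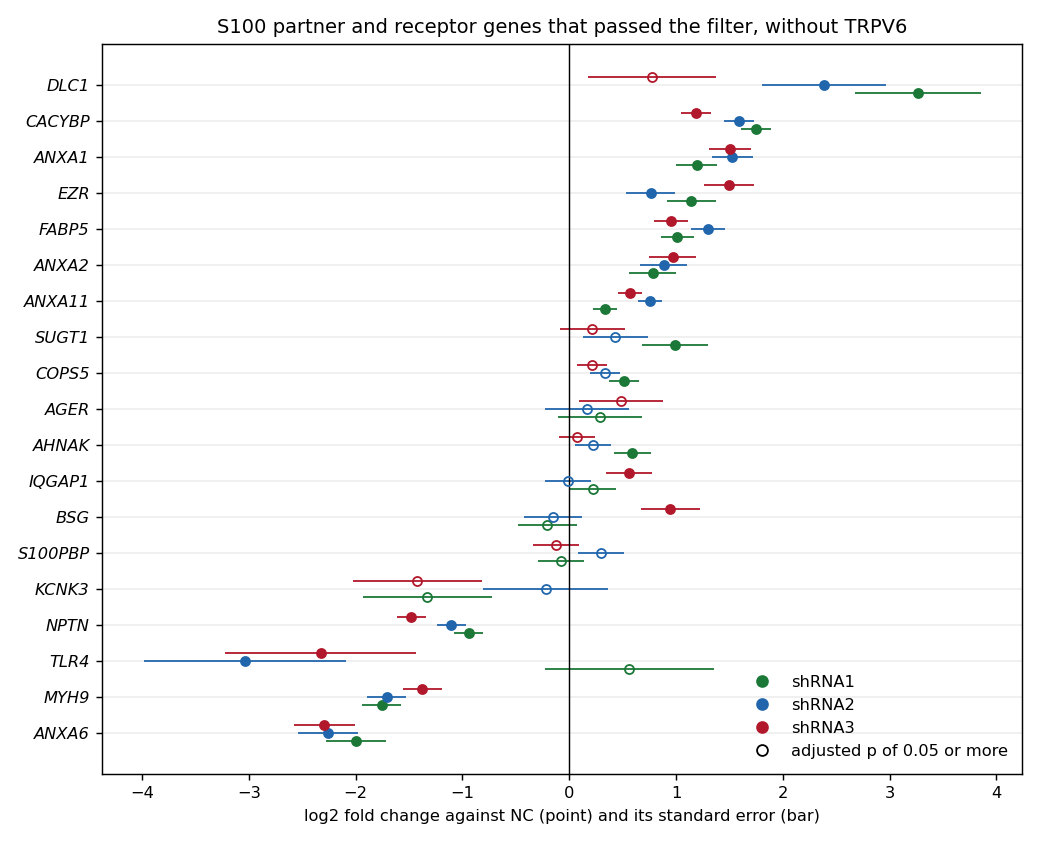
Log2 fold change against NC of 19 partner and receptor genes for each hairpin (points) with its standard error (bars), ordered by the mean of the 3, filled where the adjusted p was under 0.05, leaving out TRPV6, which had 0 counts in all shRNA libraries. ANXA6, MYH9 and NPTN lie below 0 and CACYBP, ANXA1, EZR, FABP5, ANXA2 and ANXA11 above 0 for every hairpin, while the 3 points of TLR4 and DLC1 are far apart.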

How the data were processed

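RNA sequencing of 12 libraries, 3 in each of 4 groups named by the sample titles, was analysed from the table of estimated counts per gene that the authors deposited. Per the submitters' processing notes, HISAT2, HTSeq 0.11.2 and GRCh38 were used, with no role given. Of the deposited values, 13.8% are not whole, which is not explained in the sources used here, and neither is the use of strand in counting. Values were rounded. Rows that are not Ensembl IDs held at most 0.22% of the counts of a library.

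Counts were scaled by TMM, and genes were kept by filterByExpr (minimum count 10, minimum total 15), which left 17532. One model of the 4 groups was fitted over all libraries with edgeR 4.0.16 (R 4.3.3, robust quasi-likelihood F test, two-sided, 8 residual degrees of freedom, common biological coefficient of variation 0.292), with Benjamini-Hochberg adjustment over all tested genes and a threshold of 0.05. The fit was run on simulated counts in which few genes were changed, and only in shRNA1. That run does not cover differences as broad as those between NC and the shRNA groups here. Standard errors are the log2 fold change over the square root of F. A fold against a group at 0 counts used a floor of 3 counts over the group, and ratios of small counts have exact 95% intervals. CPM per kb used the summed exon length in GENCODE 29. For genes with several RefSeq starts the middle one, or the more upstream of 2, was used for the promoter, a choice made after values were seen. Of the 21 S100 genes, 19 matched the RefSeq promoters.

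The 10 members and the lists of other S100 genes, partners, neighbours and cell type markers were chosen with earlier results of these data known. Named are all members, each other S100 gene that passed the filter, each partner called in 1 direction for all 3 hairpins, the receptors, and the called neighbours. S100A5, S100A7A, S100A7L2, S100A12, S100B, S100G, S100Z, DLC1, FLG, HRNR, PGLYRP3, LCE1B, LCE1C and LCE1E are named outside that rule. Same-numbered libraries did not deviate together (mean correlation -0.00267 over 18 pairs). Alternatives were DESeq2 1.42.0, its size factors, no filter, a mean of at least 50 counts, only the groups compared, a replicate block, stricter thresholds, and each library left out. Raw library totals were added after seeing the data.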

Additional observations from a re-analysis of the deposited data

Results flagged for a closer look

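Levels of several S100 genes and partners differed between hairpins against the same target. For the genes that were selected on these values the differences are a description. S100A4 differed by log2 -0.99 between shRNA1 and shRNA3 and by -0.68 between shRNA2 and shRNA3. S100A8 was at least 4.93-fold higher in shRNA1 than in shRNA2, and at least 10.3-fold lower in shRNA2 than in shRNA3. S100A9 differed by log2 1.58 between shRNA1 and shRNA2, by -0.96 between shRNA1 and shRNA3 and by -2.54 between shRNA2 and shRNA3. S100A14 differed by log2 -1.52 between shRNA1 and shRNA3, and S100P by -1.56 between shRNA2 and shRNA3. In each pair the value is the first group minus the second.

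For the genes outside the 10, the difference between the 2 shRNA groups passed edgeR's test. Of 20 partner and receptor genes tested, 2 passed between shRNA1 and shRNA2, 6 between shRNA1 and shRNA3 and 1 between shRNA2 and shRNA3. Of the 4 other S100 genes tested, 0, 1 and 1 passed. Among all genes tested 12.3%, 30.0% and 8.34% passed in the same order, so nothing is read from these counts. S100A13 was lower in shRNA2 than in shRNA3 by log2 -1.05, and S100A16 lower in shRNA1 than in shRNA3 by -0.85. CACYBP and NPTN were higher in shRNA1 than in shRNA3 by log2 0.56 and 0.54. ANXA11 was lower in shRNA1 than in shRNA2 by -0.42. TLR4 was higher in shRNA1 than in shRNA2 by log2 3.60 and than in shRNA3 by 2.89. BSG was lower than in shRNA3 by -1.15 in shRNA1 and by -1.10 in shRNA2. For S100A9, S100A14, S100P, S100A13, S100A16 and BSG, shRNA3 library 3 was lower than libraries 1 and 2. For S100A9, S100P, S100A13 and BSG, library 3 was still above every shRNA2 library, at 5.96, 109, 75.5 and 789 CPM. For S100A9, S100A14 and S100A16, the shRNA1 and shRNA3 libraries overlapped.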

How the results depend on the processing

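Of 1664 recomputed log2 fold changes of 28 named genes, 1613 kept their direction and side of the threshold. The reversed values were S100A2 with shRNA3 (-0.37 without shRNA3 libraries 1 and 2, -0.18 with raw library totals) and AGER with shRNA3 (-0.83 without those libraries). Raw totals moved the median of all genes to -0.10, -0.18 and -0.35 (log2) with shRNA1, shRNA2 and shRNA3. The cause was not tested for any change.

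Counts of the 10 members that differed between hairpins were unstable. For shRNA1 against shRNA2 (2), the count was 4 with only the groups compared, 5 without shRNA3 libraries 1 and 2, 0 at an adjusted p under 0.01, and 0 to 6 with single libraries left out. For shRNA1 against shRNA3 (3), it was 0 with only the groups compared, 1 at either stricter threshold, and 1 to 7 with single libraries left out. For shRNA2 against shRNA3 (4), it was 2 with no filter, with raw totals and with the replicate block, 7 with DESeq2, 0 with only the groups compared or at an adjusted p under 0.01, 1 without shRNA3 libraries 1 and 2, and 0 to 7 with single libraries left out. Replicate numbers are the only link between libraries of different groups. With the replicate block, S100A2 was no longer counted with shRNA2 (log2 0.69), nor with a mean of at least 50 counts (0.59). ANXA11 lost its shRNA1 call with no filter (log2 0.36), with a mean of at least 50 counts (0.25) and with raw totals (0.25), and its shRNA3 call with raw totals (0.25). The numbers of members called against NC ranged over 8 to 10, 9 to 10 and 9 to 10 with single libraries left out.

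With no filter, 5 other S100 genes and 3 neighbours (1 otherwise) passed with all 3 hairpins. A log2 change of at least 1 left 5 of 10 partners. The neighbours called numbered 0 at a mean of at least 50 counts, 3 without shRNA3 libraries 1 and 2, and 1 to 3 with single libraries left out. Per kb, the S100A8 to S100A9 ratio was 0.0256, 0.0287 and 0.0366 in NC, shRNA1 and shRNA3 as a mean over libraries (0.0446, 0.0499 and 0.0639 from raw counts), and 0.0252 to 0.0264, 0.0218 to 0.0380 and 0.0310 to 0.0402 with single libraries left out. Depth limits S100A7, S100A8, S100P in NC and S100A12, where 0 to 10 counts set the fold.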
